A study of Mus musculus with 12 samples.

Results

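The cells described are bone marrow-derived macrophages (BMDMs) that received neither Wnt3a nor IL-4. They are the 3 untreated cultures, 1 from each of 3 mice, of a series of 12 RNA-seq samples, whose other 9 are the same mice's BMDMs exposed to Wnt3a, to IL-4, or to both. The cultures were chosen by their label alone, and no treated sample enters any value below. All 3 mice were female C57Bl/6J with no genetic change given, and the study's methods give a range of ages for marrow donors, from young to adult, but no age for each mouse. Whole marrow, after lysis of red cells, was seeded in DMEM with 1 g/L glucose and M-CSF, the growth factor of macrophages, at 10 ng/mL. The medium was renewed at intervals and the cells were taken on day 7. The untreated cells are the controls of a treatment that lasted 16 hours. No sorting step separates macrophages from other marrow cells in this protocol, so other marrow cells that persisted in M-CSF would be in the libraries too.

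BMDMs are the standard primary macrophage of the mouse. M-CSF binds the receptor CSF1R on marrow progenitors and keeps monocytes and macrophages alive while most other marrow cells are lost. Canonical Wnt signaling starts when a Wnt protein bridges a Frizzled receptor and the co-receptor LRP5 or LRP6, which stops the destruction of beta-catenin and lets it act on DNA through TCF/LEF proteins. IL-4 binds the chain IL4RA, which then pairs with the common gamma chain (IL2RG, the type I receptor) or with IL13RA1 (the type II receptor, also used by IL-13), and the paired JAK kinases activate STAT6. The level of each of these parts without treatment is therefore the reference for all the treated samples of the series.

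The values are CPM, a gene's count scaled to a library total of 1000000 counts. Where genes are compared with each other, TPM are given instead, which divide each count by the gene's exon length before scaling to the same total. Errors are SD over the 3 mice (n = 3). The libraries held 17031873, 15381184 and 15514808 counts on 48526 listed genes, of which 28388 had 0 counts in every culture. At this depth, 3 counts correspond to 0.176 to 0.195 CPM per library, and a gene with 3 counts or fewer in each library is called at the floor. Floors cover counting error only. A gene at 1 CPM or more in every culture is called detected: 10946 genes were, 22.6% of all listed genes and 47.9% of the protein-coding ones. The 47.9% is the share to set beside each count of detected list members below, since the lists hold mostly protein-coding genes. Since the mice are separate animals, the SD covers animal and culture together, which cannot be told apart.

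Sequences and windows come from the RefSeq promoter table. The promoters of 5 genes that mark the parts of this description are shown first: 3 macrophage genes (*Lyz2*, *Ctss* and *Cd68*) and the ligand-binding receptors for IL-4 and Wnt (*Il4ra* and *Fzd7*, the highest Frizzled gene). Each window runs from 250 bases before to 50 bases after the RefSeq transcript start, 5′ to 3′ on the strand of the gene, in build GRCm38.p6. Capitals mark GAGGAA or its reverse complement TTCCTC, the core bound by PU.1, the lineage factor encoded by *Spi1*.
*Lyz2*, chr10:117282223-117282522, minus strand: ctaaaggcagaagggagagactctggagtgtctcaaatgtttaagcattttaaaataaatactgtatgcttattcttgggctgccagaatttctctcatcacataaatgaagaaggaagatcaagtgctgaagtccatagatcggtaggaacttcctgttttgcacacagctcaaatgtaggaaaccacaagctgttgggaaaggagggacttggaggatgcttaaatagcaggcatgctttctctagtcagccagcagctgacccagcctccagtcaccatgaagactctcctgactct
*Ctss*, chr3:95526536-95526835, plus strand: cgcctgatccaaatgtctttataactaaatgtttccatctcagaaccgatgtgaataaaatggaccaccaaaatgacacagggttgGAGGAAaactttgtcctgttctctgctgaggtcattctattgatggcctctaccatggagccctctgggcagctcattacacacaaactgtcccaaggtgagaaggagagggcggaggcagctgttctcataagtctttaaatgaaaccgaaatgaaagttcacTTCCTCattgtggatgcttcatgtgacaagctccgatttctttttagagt
*Cd68*, chr11:69666121-69666420, minus strand: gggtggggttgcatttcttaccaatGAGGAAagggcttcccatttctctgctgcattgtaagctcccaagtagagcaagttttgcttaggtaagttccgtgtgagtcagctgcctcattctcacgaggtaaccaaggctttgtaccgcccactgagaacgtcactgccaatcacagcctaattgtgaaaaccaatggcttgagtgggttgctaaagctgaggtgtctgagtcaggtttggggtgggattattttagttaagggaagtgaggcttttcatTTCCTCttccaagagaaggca
*Il4ra*, chr7:125552021-125552320, plus strand: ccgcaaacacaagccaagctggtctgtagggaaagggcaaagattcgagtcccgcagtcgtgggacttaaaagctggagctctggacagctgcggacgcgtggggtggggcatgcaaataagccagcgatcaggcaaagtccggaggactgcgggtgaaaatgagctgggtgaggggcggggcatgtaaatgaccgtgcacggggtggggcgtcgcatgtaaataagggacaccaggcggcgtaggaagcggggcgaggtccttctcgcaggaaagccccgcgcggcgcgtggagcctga
*Fzd7*, chr1:59481897-59482196, plus strand: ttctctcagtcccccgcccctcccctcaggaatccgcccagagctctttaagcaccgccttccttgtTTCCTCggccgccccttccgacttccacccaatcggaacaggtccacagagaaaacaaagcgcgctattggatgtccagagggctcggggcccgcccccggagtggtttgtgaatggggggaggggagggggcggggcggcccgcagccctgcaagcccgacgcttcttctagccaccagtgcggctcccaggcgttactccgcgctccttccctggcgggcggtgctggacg
The core was found 2 times in the windows of *Ctss* and *Cd68*, 1 time in that of *Fzd7* and 0 times in those of *Lyz2* and *Il4ra*. Of the 32851 windows in the RefSeq table, 28.3% hold it on either strand, and 27.2% of the 11029 windows of detected genes do. Windows were found for 39 of the 52 macrophage genes listed below, and 25 of these 53 windows (47.2%) hold it. By list, these were 57.1% for surface and sensing receptors, 47.4% for phagocytic and lysosomal genes and 40% for lineage transcription factors. The Wnt receptors and co-receptors had it in 4 of 10 windows (40%) and the IL-4 and IL-13 receptor chains in 1 of 4 (25%). Some genes have several start sites, so these windows are not independent, and a match is a description of letters, not of a bound site.

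The cultures expressed the genes that mark macrophages. All 52 genes of 3 macrophage lists (surface and sensing receptors, phagocytic and lysosomal genes, lineage transcription factors) were detected. The share was 47.9% over all protein-coding genes and 22.6% over all genes. Together they took 18.5 ± 1.08% of all counts, with 17.3, 19.3 and 18.96% in mouse 1, 2 and 3. Most of this share came from the phagocytic and lysosomal list (16.7% of counts). Surface and sensing receptors held 1.55% and lineage transcription factors 0.235%. Since the lists were chosen with earlier results of these data known, such figures describe the cultures and are no test of their identity. Of the 20 genes with the highest mean CPM, 10 were on these lists, and of the 20 with the highest mean TPM, 13 were.

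*Lyz2*, which encodes the lysozyme that macrophages secrete, was the most abundant transcript on either scale. It had 45408, 47422 and 48919.5 CPM in mouse 1, 2 and 3, or 113382 ± 4215 TPM. A single gene thus held 4.54 to 4.89% of each library, lowest in mouse 1 and highest in mouse 3. The 10 most abundant genes of each culture held 16.9 to 18.8% of its counts, the top 100 held 31.6 to 34.1%, and 422 to 507 genes made up 50% of the counts. *Lyz1*, the intestinal relative that shares 16.1% of its 50-base stretches with *Lyz2*, had 38.9, 41.0 and 37.7 CPM.

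**Figure D1:**
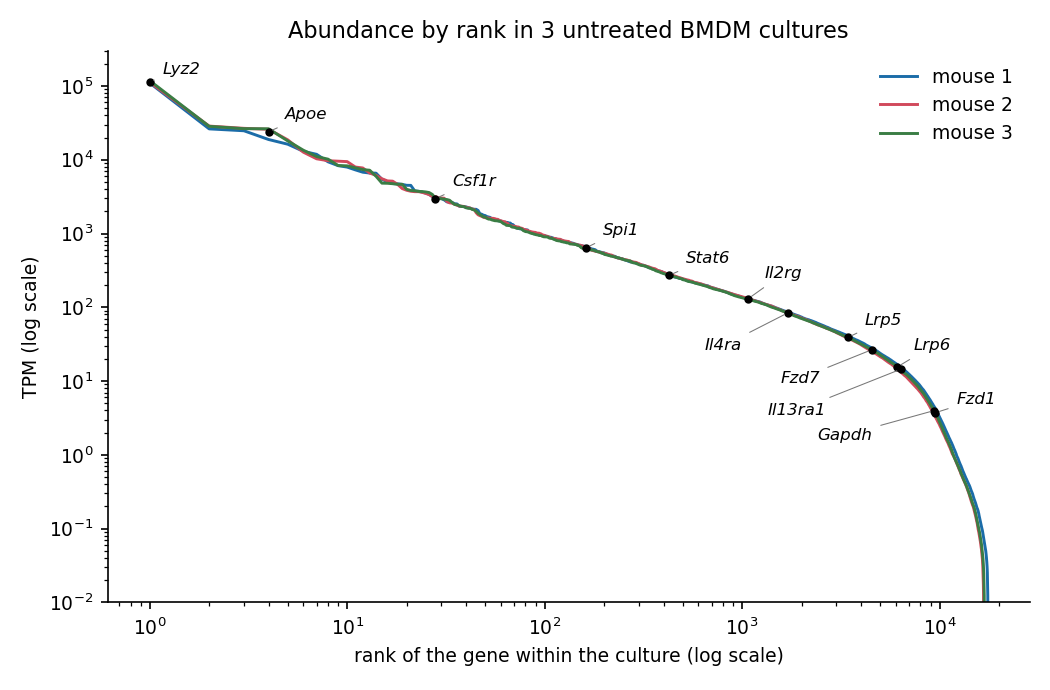
TPM of every gene (y axis, log scale) against its rank within the culture (x axis, log scale), 1 line for each mouse, with the mean of 13 named genes as black points. The lines of the 3 cultures lie on each other from *Lyz2* at rank 1 to the level of *Fzd1* near rank 9533, and *Gapdh* sits near rank 9401.

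Below *Lyz2* by TPM came *Psap*, the precursor of the saposins that help lysosomes digest sphingolipids (27717 ± 1322 TPM), *Fth1*, the heavy chain of the iron store ferritin (25610.3 ± 813 TPM), and *Apoe*, the lipid carrier apolipoprotein E (23938 ± 4452 TPM). *Psap* (26196, 28583 and 28372 TPM) was above *Fth1* (24699.7, 25869 and 26263 TPM) and *Apoe* (18800.4, 26648 and 26366 TPM) in each mouse, though the ranges over mice overlapped. The place of *Psap* depended on the length used. With the longest transcript in place of all exons, mean TPM were 33874 for *Fth1*, 28577 for *Apoe* and 22504 for *Psap*. *Fth1* was above *Apoe* in mouse 1 and below it in mouse 2 and 3, so their order was not the same in every mouse. *Apoe* was less even than *Psap* and *Fth1*, with 12634, 18273 and 17756 CPM, and mouse 1 was lower than both others. The lysosomal proteases of the list were *Ctsd* (17612 ± 1229 TPM), *Ctss* (13040 ± 399.6 TPM), *Ctsb* (9952 ± 507 TPM), *Ctsz* (3869 ± 175 TPM) and *Ctsl* (374 ± 16.3 TPM). The membrane proteins *Lamp1* (3291 ± 149.9 TPM) and *Laptm5* (2197 ± 68.6 TPM), the complement genes *C1qc* (2942 ± 245 TPM) and *C1qa* (1105 ± 116 TPM) and the calcium-binding *Aif1*, which encodes IBA1 (179 ± 24.9 TPM), made up the rest of the phagocytic list beside the genes of the next paragraph. Exons of *Ctsd* overlap another listed gene over 34.4% of their length, where reads are ambiguous, so its level is less certain than that of *Ctss*, with 0%.

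The other leaders by TPM were *B2m*, the light chain of MHC class I (10816 ± 1162 TPM), *Lgals3*, galectin 3 (8757 ± 816 TPM), *Tyrobp*, the adaptor DAP12 of activating receptors (8573 ± 767 TPM), *Gpnmb*, a glycoprotein of late endosomes (7506 ± 639 TPM), *C1qb*, of the first complement component (7219 ± 584 TPM), and *Tmsb4x*, an actin-binding peptide (7033 ± 374 TPM). *H2-D1* (5848 ± 376 TPM), *Rplp1* (4977 ± 475 TPM), *mt-Co1* (4915 ± 1571 TPM), *Cst3* (4845 ± 282 TPM), *Mpeg1* (4824 ± 197 TPM), *Cd68* (4809.7 ± 315 TPM) and *Fcer1g* (4113 ± 342 TPM) completed the 20. On the CPM scale, which favors long transcripts, *Csf1r* (5453 ± 174 CPM), *Sirpa* (3538 ± 138 CPM), *Grn* (3244 ± 125 CPM), *Itm2b* (3219.5 ± 85.5 CPM), *Actb* (3157 ± 28.0 CPM), *Lipa* (3103 ± 70.9 CPM) and *Eef2* (3032 ± 241 CPM) stood among the first 20 instead. The scales shared 13 of their 20 genes.

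Among the surface and sensing receptors, *Tyrobp* and *Fcer1g*, both signaling adaptors, led by TPM, followed by *Csf1r*, the receptor for the M-CSF in the medium, with 2982, 3048 and 2916 TPM. *Csf1r* was even across mice, with a coefficient of variation (CV, SD over mean) of 3.19% in CPM. *Adgre1*, which encodes the F4/80 antigen, had 2296, 2327 and 2824 TPM, highest in mouse 3. *Fcgr3* (1224 ± 59.9 TPM), *Cd14* (1079 ± 35.1 TPM) and *Trem2* (954 ± 86.2 TPM) came next, an Fc receptor, the LPS co-receptor and a lipid sensor that signals through DAP12. The efferocytosis receptors *Axl* (272 ± 5.49 TPM) and *Mertk* (93.9 ± 7.95 TPM), the fractalkine receptor *Cx3cr1* (222 ± 21.2 TPM), the high-affinity Fc receptor *Fcgr1* (165 ± 12.2 TPM), the lipid scavenger *Cd36* (125 ± 29.4 TPM) and the sialic acid-binding *Siglec1* (109 ± 16.5 TPM) lay in the middle. The scavenger receptors *Msr1* (52.2 ± 12.1 TPM), *Marco* (20.8 ± 0.848 TPM) and *Cd163* (5.99 ± 1.62 TPM), the mannose receptor *Mrc1* (26.1 ± 8.10 TPM) and the LPS receptor *Tlr4* (30.3 ± 8.66 TPM) were lower. *Itgam*, which encodes CD11b, read 83.4 ± 8.83 TPM, but 68.7% of its exon length is shared with the overlapping entry *Gm49368*, so reads there could have been left uncounted and its level is uncertain.

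The monocyte chemokine receptor *Ccr2* was the lowest of the surface list by TPM but for *Cd163*, with 11.5 ± 6.57 TPM, and had the highest CV of that list. It had 40.5, 16.1 and 16.9 CPM, so that mouse 1 was above 2 times each of the others. Its CV of 56.6% was the second highest of the 8151 genes with a mean of 10 CPM or more.

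Of the lineage transcription factors, *Spi1* (PU.1) led with 641 ± 46.5 TPM, at rank 162 of 41657 ranked genes. *Cebpa* (233 ± 19.6 TPM), *Cebpb* (174 ± 6.30 TPM), *Irf8* (157 ± 5.75 TPM) and *Maf* (106 ± 7.10 TPM) were among those that followed. The lipid-sensing receptors *Nr1h3*, which encodes LXR alpha, and *Pparg* had 94.5 ± 9.18 TPM and 55.6 ± 2.34 TPM. *Zeb2* (43.1 ± 10.1 TPM), *Mitf* (29.5 ± 7.16 TPM), *Bhlhe40* (27.8 ± 3.03 TPM), *Runx1* (23.0 ± 2.16 TPM), *Tfec* (10.6 ± 3.10 TPM) and *Klf4* (7.80 ± 1.44 TPM) were lower, and each was above 1 CPM in every culture.

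Markers of 12 other cell types were read beside these. Of their 96 genes, 27 were detected, beside 47.9% of all protein-coding genes, and 40 were at the floor. T cell markers were detected in 2 of 8 cases and summed to 81.7 ± 13.4 CPM, nearly all from *Il7r*. B cell markers were detected in 3 of 8 cases and summed to 99.8 to 105 CPM, from *Ighm*, *Cd22* and *Cd79b*. By contrast *Cd3d*, *Cd3e*, *Cd3g*, *Cd8a*, *Pax5*, *Ncr1* and *Nkg7* had 0 counts in each library, which allows up to 0.195 CPM. NK cell markers summed to 0 to 0.258 CPM with 0 of 6 detected, and erythroid markers to 0.470 to 0.715 CPM with 0 of 8. For *Hba-a1*, *Hba-a2*, *Hbb-bs* and *Hbb-bt*, which are near-identical pairs, shared reads may be missing from the counts. Mast cell and basophil markers (4.16 to 5.09 CPM, 1 of 7 detected, *Kit* with 4.26 ± 0.435 CPM), eosinophil markers (1.30 to 2.51 CPM, 0 of 5) and megakaryocyte markers (12.5 to 14.4 CPM, 1 of 6, *Pf4* with 11.6 ± 0.752 CPM) were low too.

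Several single markers stood out from lists that were otherwise near 0. *Vwf*, the blood clotting factor of endothelium and platelets, had 289, 293 and 284 CPM, nearly the same in every mouse, while the endothelial genes *Cdh5*, *Emcn* and *Tek* had 0.164 ± 0.0885 CPM, 0 and 0. *Kdr*, a receptor for VEGF, had 20.3, 15.7 and 18.05 CPM. *Ighm*, the constant region of IgM, had 84.2, 81.9 and 75.2 CPM with *Pax5* at 0, *Cd22* had 14.3, 18.9 and 20.8 CPM, and *Cd79b*, part of the B cell receptor, had 3.99, 3.84 and 3.61 CPM. *Il7r*, the IL-7 receptor chain, had 88.4, 62.3 and 80.6 CPM with all CD3 genes at 0. *Cd4* had 3.99, 4.23 and 4.25 CPM.

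Neutrophil markers were detected in 6 of 12 cases, near the 47.9% of all protein-coding genes. They summed to 66.0 to 97.6 CPM, led by *Mmp8* (30.2, 16.1 and 16.4 CPM), *S100a9* (21.3, 17.0 and 20.5 CPM) and *Ngp* (18.5, 13.1 and 15.6 CPM), while *Ly6g* had 0 counts. Dendritic cell markers summed to 127 to 141 CPM, nearly all from the MHC class II gene *H2-Ab1* (105 ± 8.52 CPM) and *Itgax*, which encodes CD11c (24.0 ± 1.88 CPM), with *Flt3* at the floor. Of the osteoclast markers, a cell that arises from the same precursors, 6 of 10 were detected, beside 47.9% of all protein-coding genes. Among them, *Nfatc1* had 96.3 ± 5.91 CPM, *Atp6v0d2* 34.3 ± 2.08 CPM and *Acp5* 31.4 ± 5.20 CPM, while *Calcr* was at 0. Stromal markers were uneven: *Col1a1* had 3.88, 8.71 and 9.09 CPM and *Col1a2* had 3.46, 9.75 and 9.09 CPM, so both collagen genes were lower in mouse 1 than in the others, with *Dcn* at the floor and *Pdgfra* and *Lum* at 0. In bulk RNA, fewer cells of a type and less RNA per cell cannot be told apart, and the part of any of these cells in the levels below was not tested.

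**Figure D2:**
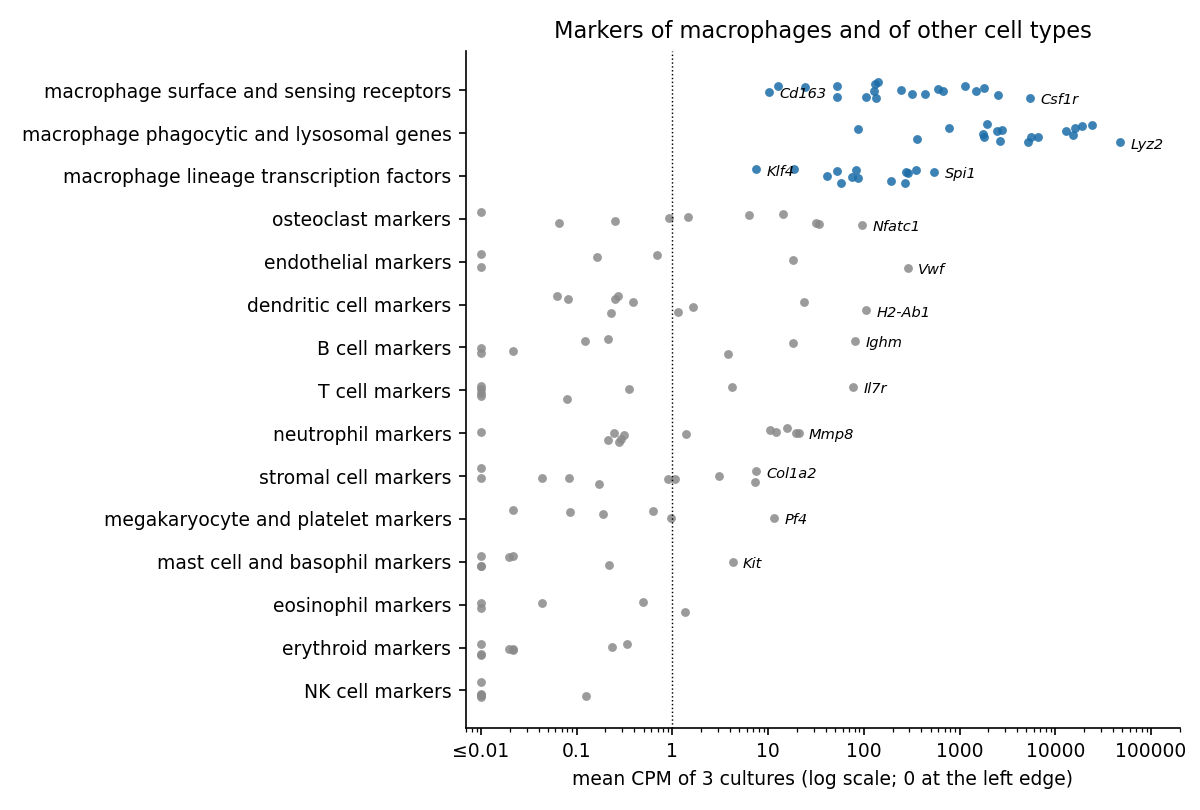
Mean CPM of the 3 cultures (x axis, log scale, values of 0 at the left edge) for each gene of 3 macrophage lists (blue) and 12 lists of other cell types (gray), 1 point for each gene, with a dotted line at 1 CPM. All 52 macrophage genes lie to the right of the line, from *Klf4* at 7.52 CPM to *Lyz2* at 47249.8 CPM, while single points such as *Vwf* and *Ighm* stand far from the rest of their lists.

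For the Wnt pathway, 6 of 16 receptor and co-receptor genes were detected, against 47.9% of all protein-coding genes, and 7 were at the floor. Both co-receptors of the canonical pathway were present. *Lrp5* had 107, 128 and 128 CPM, or 34.9, 40.9 and 41.6 TPM. *Lrp6* had 74.4, 53.1 and 74.6 CPM, or 17.3, 12.1 and 17.3 TPM. By TPM, *Lrp5* exceeded *Lrp6* in each mouse, by 2.02, 3.38 and 2.41 times, and mouse 2, with the lowest *Lrp6*, had the largest ratio.

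Of the 10 Frizzled genes, 3 were detected, beside 47.9% of all protein-coding genes. *Fzd7* (chr1:59482424-59486955) led with 35.8, 42.8 and 36.2 CPM, or 25.1, 29.4 and 25.3 TPM, and was highest in mouse 2. It made up 72.4, 77.6 and 73.2% of the summed TPM of all Frizzled genes in mouse 1, 2 and 3. *Fzd5* (chr1:64730558-64737751) had 10.5, 8.65 and 10.4 CPM, and *Fzd1* (chr5:4753839-4758035) had 5.17, 4.94 and 4.77 CPM. *Fzd4* had 1.29, 1.30 and 0.902 CPM, above 1 CPM in mouse 1 and 2 and below it in mouse 3. *Fzd8* (0.117, 0.520 and 0.322 CPM) and *Fzd2* (0.176, 0 and 0.258 CPM) rested on a few counts. *Fzd3* and *Fzd6* were at the floor, and *Fzd9* and *Fzd10* had 0 counts. Outside the Frizzled family, *Ryk*, a receptor for non-canonical Wnt signals, had 1.76, 1.89 and 1.998 CPM, *Ror2* and *Ptk7* were at the floor, and *Ror1* had 0 counts.

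Ordered by TPM, the detected receptors were *Lrp5* (39.2 ± 3.70 TPM), *Fzd7* (26.6 ± 2.44 TPM), *Lrp6* (15.6 ± 3.003 TPM), *Fzd5* (4.50 ± 0.521 TPM), *Fzd1* (3.73 ± 0.163 TPM) and *Ryk* (1.31 ± 0.0825 TPM). *Fzd5* (4.81, 3.90 and 4.79 TPM) was above *Fzd1* (3.92, 3.67 and 3.61 TPM) in each mouse. Their ranges over mice overlapped by a narrow margin, through mouse 2 of *Fzd5* and mouse 1 of *Fzd1*, so the order is not beyond the spread between mice. The ranges of all other neighbors were apart. With the longest transcript in place of the exon union, the order was the same.

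Genes that act on these receptors were mostly at the floor. Of 26, 6 were detected, beside 47.9% of all protein-coding genes, and 17 were at the floor. The ubiquitin ligases that remove Frizzled from the surface were present, *Znrf3* with 7.99, 7.997 and 6.83 CPM and *Rnf43* with 1.17, 1.495 and 1.03 CPM. Of the R-spondin receptors that oppose them, *Lgr4* had 0.881, 0.975 and 1.22 CPM, and *Lgr5* and *Lgr6* were at the floor, as were all 4 R-spondins, each with 0 counts. *Kremen1*, the receptor through which DKK proteins clear LRP6, had 50.6, 51.8 and 49.2 CPM, and *Dkk2* was the DKK gene detected, with 5.28, 6.18 and 4.96 CPM. Of the secreted Frizzled-like inhibitors, *Sfrp1*, *Sfrp2*, *Sfrp4* and *Frzb* had 0 counts and *Sfrp5* had 3, 7 and 7. Of the genes for Wnt export, *Wls*, the carrier, had 120.4, 103 and 120.2 CPM and *Porcn*, which attaches the lipid, had 2.94, 2.601 and 3.22 CPM.

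Few Wnt ligands were detected, beside 47.9% of all protein-coding genes. Of 19 genes, 2 were detected, *Wnt6* with 1.88, 2.47 and 1.80 CPM and *Wnt9a* with 1.23, 2.08 and 2.26 CPM, and 11 had 0 counts in all 3 cultures. *Wnt3a*, the ligand that the study added to other cultures, was among those with 0 counts. All ligands together came to 3.76 to 5.33 CPM.

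Most listed genes of the chain from receptor to nucleus were detected, 23 of 27 transducers, beside 47.9% of all protein-coding genes. *Ctnnb1*, which encodes beta-catenin, had 587, 496 and 507 CPM, or 323 ± 32.9 TPM, at rank 364. The Dishevelled genes, which relay the signal from Frizzled, had 62.8 ± 7.94 CPM (*Dvl1*), 40.3 ± 3.84 CPM (*Dvl2*) and 23.2 ± 2.46 CPM (*Dvl3*). Of the complex that destroys beta-catenin, *Axin1* had 76.9, 86.6 and 81.0 CPM, *Gsk3a* 69.5 ± 2.79 CPM, *Gsk3b* 72.1 ± 8.88 CPM, *Csnk1a1* 138 ± 7.84 CPM and *Apc* 58.2, 27.8 and 49.9 CPM, with *Apc* lowest in mouse 2.

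At the DNA-binding step, *Tcf7l2* was the TCF/LEF gene detected. Of the 4 TCF/LEF genes, *Tcf7l2* had 26.6, 16.8 and 19.5 CPM, while *Lef1*, *Tcf7* and *Tcf7l1* were at the floor, with 2, 0 and 0, 1, 0 and 1 and 3, 1 and 0 counts in mouse 1, 2 and 3. The co-activators *Bcl9* (37.8 ± 1.501 CPM), *Bcl9l* (17.9 ± 2.33 CPM) and *Pygo2* (93.2 ± 2.23 CPM) and the co-repressors *Tle3* (99.2 ± 3.09 CPM) and *Tle4* (54.4 ± 3.79 CPM) were present, and *Pygo1* was at the floor.

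Of 10 genes listed as Wnt targets, 5 were detected, beside 47.9% of all protein-coding genes. *Axin2*, the feedback inhibitor often read as a measure of the pathway, had 0, 0 and 1 counts, and *Nkd1* was at the floor and *Nkd2*, *Sp5* and *Tnfrsf19* had 0 counts. *Ccnd1* (24.0, 31.7 and 33.2 CPM), *Myc* (11.7, 13.9 and 12.1 CPM), *Ddx3x* (179, 98.8 and 182 CPM) and *Senp2* (138, 116 and 129.6 CPM) were among those detected. Of these, *Ccnd1* and *Myc* drive cell division and answer to many signals other than Wnt. The list took *Ddx3x* and *Senp2* from a set of Wnt markers that the study read in blood.

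**Figure D3:**
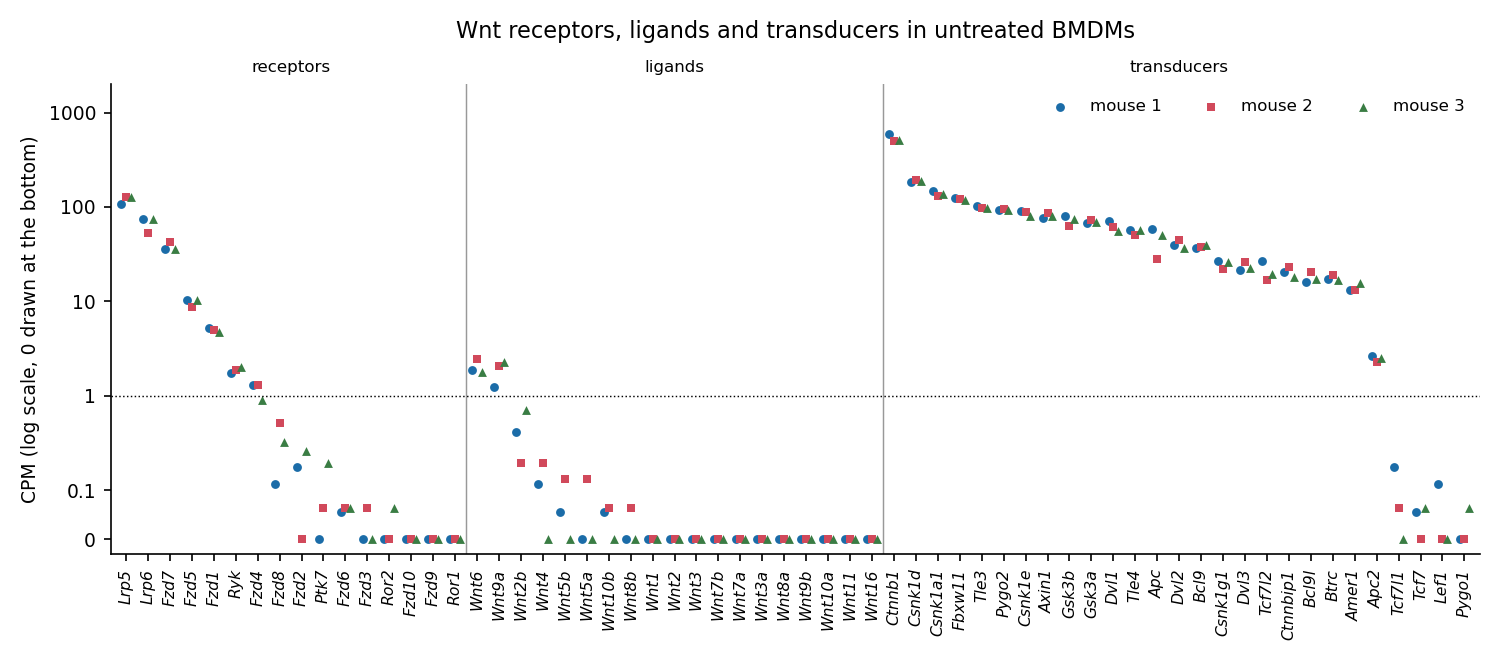
CPM (y axis, log scale, 0 drawn at the bottom) of Wnt receptors, ligands and transducers, each gene with 1 point for each of the 3 mice and a dotted line at 1 CPM. *Lrp5*, *Lrp6* and *Fzd7* lie above 10 CPM, *Wnt6* and *Wnt9a* are the ligands above the line, and *Tcf7l1*, *Tcf7*, *Lef1* and *Pygo1* are the transducers far below the line.

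For IL-4, 3 of 4 receptor chains were detected, beside 47.9% of all protein-coding genes. *Il4ra* (chr7:125552120-125579474), the chain that binds IL-4, had 145, 167 and 167 CPM, or 77.1, 86.9 and 88.3 TPM, lowest in mouse 1. *Il2rg*, the common gamma chain of the type I receptor, had 106, 89.7 and 98.2 CPM, or 142, 117 and 131 TPM. *Il13ra1*, the second chain of the type II receptor, had 21.9, 12.2 and 16.8 CPM, or 18.8, 10.3 and 14.3 TPM, highest in mouse 1 and lowest in mouse 2. *Il13ra2*, the decoy receptor for IL-13, had 0 counts in each culture, which allows up to 0.195 CPM.

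The order of the chains depended on the scale. By CPM *Il4ra* was highest in each mouse, and by TPM *Il2rg* was, since its exons are shorter. By TPM the type I partner *Il2rg* exceeded the type II partner *Il13ra1* in each mouse, by 7.55, 11.4 and 9.11 times. The ratio of *Il4ra* to *Il2rg* was 0.654 ± 0.101 in TPM. Exons of *Il2rg* overlap the entry *Gm20489* over 30.5% of their length, where reads could have been left uncounted. The type II chain was the least even of the 3, with a CV of 28.5% against 7.85% for *Il4ra* and 8.53% for *Il2rg*.

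Downstream of the receptor, 15 of 16 genes were detected, beside 47.9% of all protein-coding genes. *Stat6*, the transcription factor that IL-4 activates, had 362, 394 and 378 CPM, or 271 ± 8.84 TPM, at rank 427. It exceeded *Stat3* (173, 181 and 176 CPM, or 58.6 ± 0.704 TPM) by 4.63 ± 0.0955 times in TPM. That SD covers the mice and not the length used. With the longest transcript, mean TPM were 249 for *Stat6* and 72.6 for *Stat3*, a smaller ratio. Of the kinases, *Jak1*, which binds IL4RA, had 134 ± 9.11 TPM, *Tyk2*, which binds IL13RA1, 68.6 ± 1.41 TPM, *Jak3*, which binds IL2RG, 15.7 ± 0.976 TPM, and *Jak2* 14.6 ± 4.34 TPM. *Jak3* and *Jak2* overlapped between mice and could not be ordered. The phosphatase *Ptpn6* (569.5 ± 17.8 TPM) and the adaptor *Grb2* (379 ± 19.9 TPM) were the most abundant of the list.

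Of the feedback inhibitors, *Socs3* had 13.3, 13.9 and 11.0 CPM, *Socs1* 2.35, 1.495 and 1.48 CPM and *Cish* 1.47, 1.24 and 1.29 CPM. *Irs2*, an adaptor of the type I receptor, had 31.8, 33.1 and 32.9 CPM, while its relative *Irs1* was at the floor.

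*Il4* itself was read at a low and even level: 31, 28 and 33 counts, or 1.82, 1.82 and 2.13 CPM and 4.95 ± 0.482 TPM. No exon of another listed gene overlaps it, and 0% of its 50-base stretches occur in other genes. *Il13*, its neighbor and the other ligand of the type II receptor, had 0 counts, as did *Il33* and *Il25*. Mast cell, basophil and eosinophil markers, cells known for *Il4*, were at the levels given above, with *Fcer1a*, *Ms4a2* and *Epx* at 0 and *Mcpt8* at 0, 1 and 0 counts. The source of these counts was not tested.

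Of 18 listed IL-4 response genes, 7 were detected without treatment, beside 47.9% of all protein-coding genes. *Tgm2*, transglutaminase 2, had 322, 408 and 423 CPM, lower in mouse 1, and *Clec7a*, the beta-glucan receptor, had 191, 137 and 166 CPM. The lectins *Mrc1* (52.4, 36.8 and 68.6 CPM) and *Clec10a* (23.7, 19.8 and 31.5 CPM) were lowest in mouse 2 and highest in mouse 3. *Chil3* had 17.4, 12.5 and 15.1 CPM, *Egr2* 9.63, 10.6 and 7.28 CPM and *Irf4* 4.81, 4.94 and 4.25 CPM. *Arg1*, arginase 1, had 0, 2 and 1 counts, *Retnla* 0, 0 and 1, and *Ccl17* and *Rnase2a* 0 in each culture. *Arg1* and *Ccl17* were thus not detectable at this depth without treatment, while *Tgm2* and *Clec7a* were well above the floor.

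**Figure D4:**
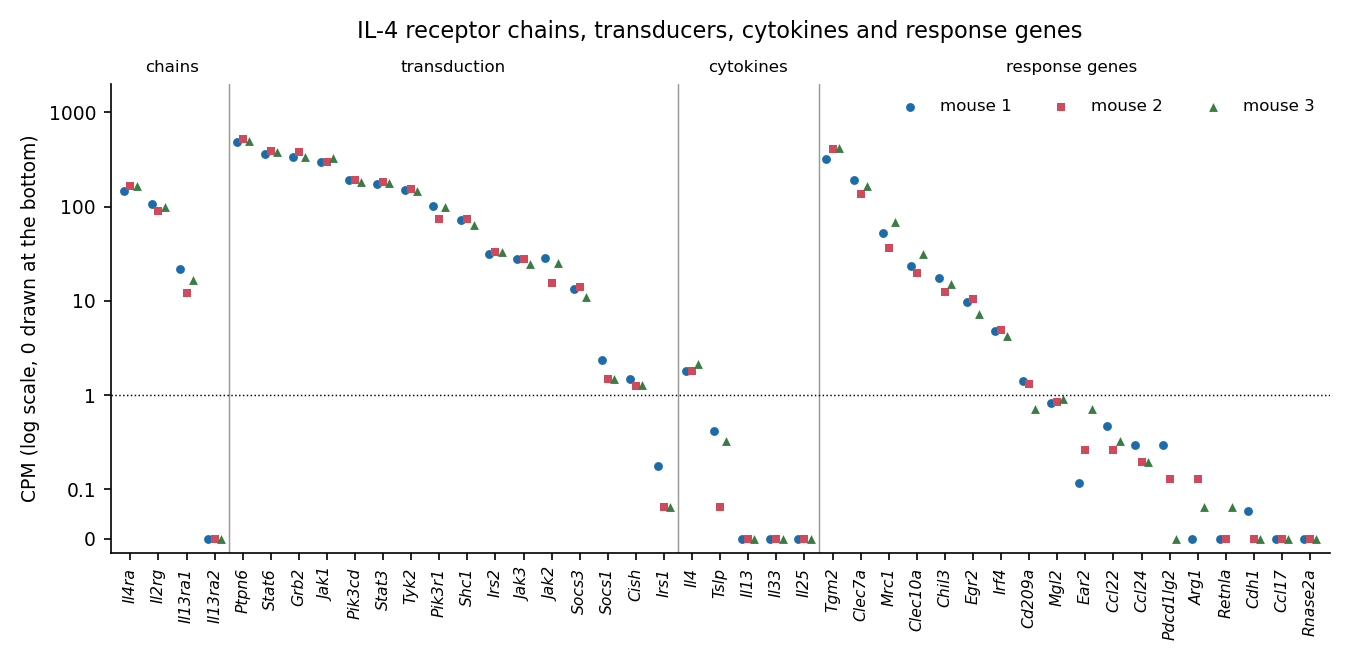
CPM (y axis, log scale, 0 drawn at the bottom) of IL-4 and IL-13 receptor chains, signal transduction genes, type 2 cytokines and IL-4 response genes, each gene with 1 point for each of the 3 mice and a dotted line at 1 CPM. *Il4ra*, *Il2rg* and *Il13ra1* are all above 10 CPM with *Il13ra2* at 0, and the response genes run from *Tgm2* at 384 CPM to *Ccl17* at 0.

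Receptors of other signals were present as well, and the share to set beside their count is again 47.9% of protein-coding genes. All 8 listed receptor genes for IL-10, IL-6 and its relatives, TGF-beta, HGF and CXCR3 ligands were detected: *Il10ra* (430.3, 433 and 432 CPM), *Il10rb* (318 ± 14.2 CPM), *Tgfbr2* (220.1 ± 14.3 CPM), *Il6ra* (182 ± 4.26 CPM), *Il6st*, the shared gp130 chain (152 ± 7.39 CPM), *Tgfbr1* (199.5, 84.6 and 152 CPM), *Cxcr3* (14.5 ± 0.298 CPM) and *Met* (2.41 ± 0.736 CPM). *Tgfbr1* was uneven, with mouse 1 above 2 times mouse 2, while *Il10ra* had a CV of 0.364%. Of 13 genes of prostaglandin E2, a lipid mediator, 10 were detected, beside 47.9% of all protein-coding genes. The degrading enzyme *Hpgd* had 201, 159 and 164 CPM, the inducible synthases *Ptgs2* and *Ptges* 1.17, 0.520 and 0.773 CPM and 3.93, 2.67 and 2.84 CPM. By TPM, *Hpgd* (328 ± 45.6 TPM) was far above *Ptges* (2.53 ± 0.573 TPM) and *Ptgs2* (0.569 ± 0.233 TPM). The constitutive *Ptgs1* had 36.8, 32.1 and 37.1 CPM. Of the receptors, *Ptger4* had 44.2, 39.5 and 41.5 CPM and *Ptger2* 20.96, 18.9 and 21.2 CPM.

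Of 20 inflammatory genes, 11 were detected, beside 47.9% of all protein-coding genes. The chemokines *Ccl3* (82.6, 75.03 and 74.0 CPM) and *Ccl4* (56.3, 49.8 and 49.1 CPM) led by TPM too, with 318 ± 21.4 TPM and 248 ± 20.6 TPM, *Tnf* had 29.1, 27.05 and 21.5 CPM and *Il1b* 26.5, 17.6 and 22.4 CPM, while *Nos2*, *Il6*, *Il12a*, *Il12b* and *Il23a* were at the floor. All 12 cell cycle genes were detected, beside the same 47.9%. Of these, *Mki67* had 23.7, 8.26 and 14.0 CPM and *Pcna* 84.9, 86.3 and 81.9 CPM. *Mki67* was highest in mouse 1 and lowest in mouse 2, and *Pcna* was even.

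The study used *Hprt* and *Gapdh* as qPCR references, and in these counts they stood far apart. *Hprt* had 139, 94.0 and 112 CPM, highest in mouse 1. *Gapdh*, a glycolytic enzyme that is among the most abundant transcripts of most cells, had 98, 82 and 71 counts, or 5.75, 5.33 and 4.58 CPM, at rank 9401 by TPM. The principal *Gapdh* transcript shares 82.5% of its 50-base stretches with other annotated genes, and 202 such genes share at least 1. The length of 50 was chosen here because the read length was not given. The primers of the study show the same sharing. They are printed 5′ to 3′, in lower case since no letter is marked:
*Gapdh* forward: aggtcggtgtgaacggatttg
*Gapdh* reverse: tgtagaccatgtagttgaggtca
*Hprt* forward: gaggagtcctgttgatgttgccag
*Hprt* reverse: ggctggcctataggctcatagtgc
Both *Gapdh* primers, matched exactly to GENCODE M21 transcripts, lie in the same orientation in 45 other genes (40 of them pseudogenes), with products of 123 to 129 bases beside the 123 bases of *Gapdh* itself. The *Hprt* pair, and each of the other 10 primer pairs of the study that were checked, matched both primers in its own gene and 0 others. These are matches to transcripts, and the counts of primer products were not measured here.

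*Gapdh* was not alone. *Ftl1*, the light chain of ferritin, had 29.9, 23.1 and 19.6 CPM with 90.6% of its stretches shared, while *Fth1*, the heavy chain, had 28137 ± 1045 CPM with 4.01%. The cytoplasmic actin *Actg1* had 1.59, 1.56 and 1.68 CPM with 56.7% shared, while *Actb* had 3174, 3172 and 3125 CPM with 14.2%. *Ppia*, another common reference, had 25.5, 28.2 and 30.8 CPM with 54.3%. *Eef1a1*, with 60.6% shared, still had 2762, 2887 and 2873 CPM, so a high share was not always beside a low level. Of 21686 protein-coding genes, 1995 (9.20%) share 50% or more of the principal transcript's stretches. Among the references, *Actb* was the most even, with a CV of 0.886%, against 9.72% for *B2m*, 5.18% for *Rplp0* and 19.7% for *Hprt*.

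The mitochondrial genome showed the same on a few genes. Of its 13 protein genes, 7 had 240.2 to 3207 CPM, and 6 had exactly 0 counts in all 3 cultures. These are *mt-Co2*, *mt-Atp8*, *mt-Atp6*, *mt-Co3*, *mt-Nd3* and *mt-Nd4l*, neighbors on a single stretch from position 7013 to 10173 of the mitochondrial chromosome. Of them, 5 share 98.0 to 100% of their stretches with other annotated genes (the 7 counted genes share 0 to 62.2%), and *mt-Atp8*, which overlaps *mt-Atp6* in part, shares 0%. Genes that every cell uses were thus listed at 0. The measured members were lower in mouse 2 than in both others: *mt-Co1* had 3207, 1732 and 2261 CPM, and *mt-Cytb* 1696, 888 and 1295 CPM.

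Agreement between the cultures was high over the bulk of genes. Across the 10946 detected genes, Pearson's r of log2 CPM was 0.984 between mouse 1 and 2, 0.992 between mouse 1 and 3 and 0.989 between mouse 2 and 3, and Spearman's rho was 0.983, 0.994 and 0.990. These are across genes of the same annotation, which are not independent replicates. Of the 20 genes highest by TPM in each culture, 18 were common to all 3, and of the 100 highest, 90. The median CV was 17.6% for the 2795 detected genes with a mean of 1 to 10 CPM, 8.89% for the 6227 from 10 to 100, 6.23% for the 1837 from 100 to 1000 and 6.42% for the 87 above. Counting error alone would give medians of 11.99, 4.36, 1.91 and 0.640%, so that above 100 CPM the spread between mice was several times that of counting. The biological coefficient of variation estimated by edgeR was 13.2% over 11553 genes, falling from 15.7% at 10 CPM to 10.4% at 100 CPM.

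The disagreement that remained ran one way. Of detected genes, 5.23% differed by 2 times or more between the highest and the lowest culture, and the pair of mouse 1 and 2 differed most, with 498 genes at 2 times or more against 90 for mouse 1 and 3 and 148 for mouse 2 and 3. Without mouse 2 the count thus fell to the 90 of the remaining pair. Among the 8151 genes with a mean of 10 CPM or more (16.8% of all), 257 differed by 2 times or more, and of these 251 were highest in mouse 1 and 254 lowest in mouse 2. Over all the genes at this level, by contrast, 3642 were highest in mouse 1, 2977 in mouse 2 and 1532 in mouse 3.

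The 10 genes with the highest CV at this level were *Xist* (289, 78.5 and 169.5 CPM), *Ccr2*, *Clk1* (85.02, 28.9 and 44.1 CPM), *Adgb* (17.3, 6.11 and 8.77 CPM), *Mdm4* (60.4, 20.5 and 33.5 CPM), *Zfc3h1* (62.6, 21.2 and 35.8 CPM), *Hnrnph1* (89.4, 31.9 and 47.8 CPM), *Ttc14* (25.5, 8.71 and 14.6 CPM), *Nipbl* (60.2, 18.1 and 44.7 CPM) and *Samd9l* (75.3, 23.1 and 53.0 CPM). All 10 were highest in mouse 1 and lowest in mouse 2. *Xist*, the RNA that coats the inactive X chromosome and stays in the nucleus, had the highest CV, 59.0%, and the 4 Y-linked genes checked (*Ddx3y*, *Uty*, *Kdm5d* and *Eif2s3y*) had 0 counts in each culture. *Malat1* and *Neat1*, other RNAs that stay in the nucleus, had 371, 178 and 258 CPM and 443, 237 and 226 CPM, both highest in mouse 1. *Clk1* encodes a kinase of splicing factors, *Hnrnph1* a splicing regulator, *Mdm4* an inhibitor of p53 and *Nipbl* the loader of cohesin.

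Length moved with this difference. Genes of the 8151 with 200 bp of exons or more were ordered by length and cut into 5 groups of 1627 to 1631 genes. The median log2 ratio of mouse 2 to the mean of the other mice fell from 0.085 in the shortest group (243 to 2713 bp) to -0.19 in the longest (7967 to 123179 bp). That of mouse 1 rose from -0.00096 to 0.14, and that of mouse 3 from -0.077 to 0.049. The groups were cut after the values were seen. The part of RNA quality or library preparation in the pattern was not tested, and neither was given for single samples in the sources used here. Detected Wnt and IL-4 receptors lowest in mouse 2 were *Lrp6* (13672 bp of exons), *Fzd5* (6915 bp), *Il13ra1* (3712 bp) and *Il2rg* (2387 bp). *Tgfbr1* (6534 bp) was lowest there too. *Lrp5* (9738 bp), *Il4ra* (6002 bp), *Ryk* (4534 bp), *Fzd7* (4532 bp) and *Fzd1* (4197 bp) were not.

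**Figure D5:**
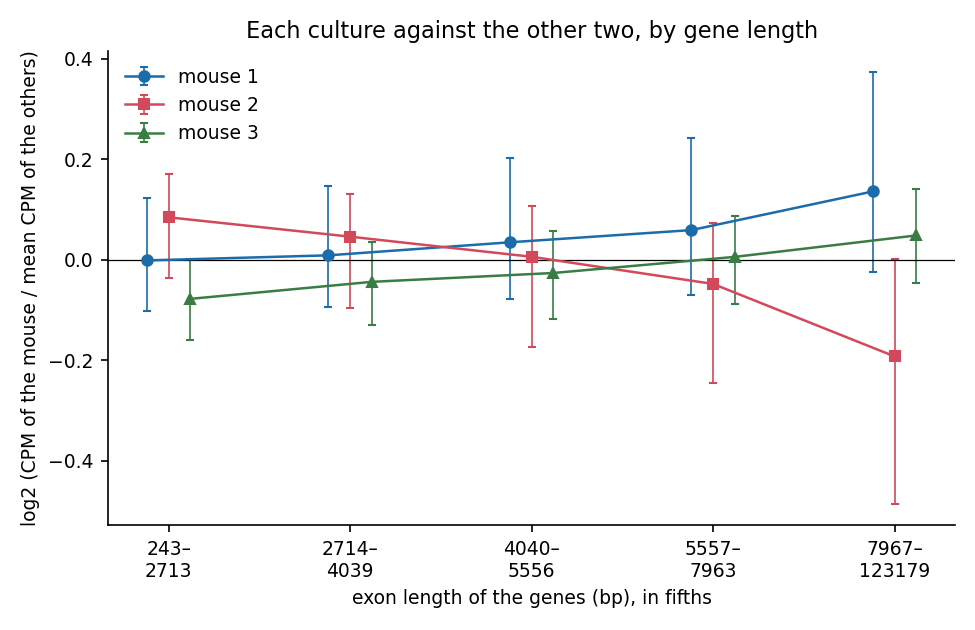
Median log2 ratio of each mouse's CPM to the mean CPM of the other mice (y axis) for genes with a mean of 10 CPM or more in 5 groups of exon length (x axis, bp), with bars from the lower to the upper quartile of genes. Mouse 2 falls from 0.085 to -0.19 and mouse 1 rises from -0.00096 to 0.14 across the groups.

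Relative to the mean of the others, mouse 1 was highest in *Ccr2*, *Xist*, *Clk1*, *Adgb* and *Hnrnph1*, all named above. By the same measure, mouse 1 was furthest below the others in *Cd300ld3* (10.7, 22.1 and 19.8 CPM), *Cmklr1* (6.81, 9.82 and 15.4 CPM), *Itga9* (9.86, 15.1 and 18.3 CPM), *Dbp* (20.4, 34.1 and 34.2 CPM) and *Rps25* (12.8, 23.9 and 18.8 CPM), and *Apoe* and the collagens above had the same direction. Mouse 2 was furthest above the others in *Pold2* (8.34, 13.3 and 8.89 CPM), *Lzts2* (9.34, 14.0 and 9.02 CPM), *Folr2* (13.6, 24.5 and 18.7 CPM), *Rps25* and *Bckdha* (17.9, 28.5 and 21.3 CPM). *Folr2*, a folate receptor of tissue macrophages, overlaps another gene over 63.1% of its exon length, and *Bckdha* over 61.7%. Mouse 2 was furthest below the others in *Atrx*, a chromatin remodeler (53.0, 15.9 and 44.1 CPM), *Nbeal1* (14.3, 4.62 and 13.3 CPM), *Xist*, *Nipbl* and the pseudogene *Gm8995* (77.2, 24.8 and 66.1 CPM). Mouse 3 was furthest above the others in *Cmklr1*, the chemerin receptor, *Fpr1* (13.1, 9.17 and 19.5 CPM), a receptor for bacterial peptides, *Bambi* (14.6, 17.8 and 27.5 CPM), *Rhobtb1* (7.81, 9.23 and 14.1 CPM) and *Tfrc*, the transferrin receptor (32.7, 20.2 and 43.7 CPM), and furthest below their mean in *F11r* (20.5, 19.3 and 11.3 CPM), *Atp2b4* (13.4, 11.4 and 7.22 CPM), *Ccr2* (where mouse 2 was slightly lower still), *Dazap2* (378, 381 and 229 CPM) and the pseudogene *Gm9843* (27.9, 22.3 and 15.2 CPM). With a single culture for each mouse, an animal and its culture or library cannot be told apart.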

How the data were processed

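RNA was sequenced as single reads on an Illumina HiSeq. The authors trimmed reads with Trimmomatic (version 0.36), aligned them to mm10 with STAR (version 2.6.0) and counted them per gene with HTSeq (version 0.11.1). The deposited values are raw counts for each Ensembl gene ID and sample. The study's methods name UCSC genes while the table lists Ensembl IDs, so the gene models behind the counts of overlapping genes and of genes with shared sequence are uncertain. The annotation release, strand setting and read length were not given in the sources used here. Of the 12 columns, the 9 treated ones were not used here.

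CPM were computed from column totals. TPM used the exon union of GENCODE M21, which held 48144 of 48526 IDs, over the 41657 genes of 200 bp or more. Ratios of TPM between genes depend on this length, and their spread over mice does not cover it. Overlap and shared sequence (50-base stretches of the principal transcript found in transcripts of other genes) used the same annotation. Correlations used log2 CPM with a prior count of 2. Variation was estimated with edgeR (version 4.0.16) after TMM scaling over genes with 10 counts or more in each library, and this step was tested on simulated data. No p-value was computed, since the samples form 1 group.

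Named genes are the members of the macrophage, Wnt receptor and IL-4 receptor lists, members of the other lists described by role, the 20 highest by mean CPM and by mean TPM, the study's qPCR genes, the 10 genes with the highest CV at a mean of 10 CPM or more and, for each mouse, the 5 such genes highest and lowest against the others. Single marker genes of other cell types, *Lyz1*, *Malat1*, *Neat1*, *Ftl1*, *Actg1*, *Eef1a1* and the mitochondrial genes were named after their values were seen. Members and lists were chosen with earlier results of these data known. Alternatives were other scalings (TMM, DESeq2 version 1.42.0 size factors), thinned counts, other limits and lengths, and each mouse left out. A few members of the lists are counted in their totals but not reported here by name.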

Additional observations from a re-analysis of the deposited data

How the results depend on the processing

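Of 202 alternative values for 25 results, 175 stayed within set limits, 27 moved and 0 reversed. The limit was 1.5 times for counts and the SD between mice for means and ranks. For the median CV, the correlation and the biological coefficient of variation, it was the SD of the values with each mouse left out. Results added later had limits of their own. Some values could not move: TMM and DESeq2 scaling cancel in TPM ranks, and leaving out 1 of 3 mice cannot shift a mean beyond that SD. At a limit of 10 CPM, 3 Wnt receptors were detected. The median CV over detected genes (9.62%) was 23.0% over all genes with 1 count or more, and 7.13 to 9.44% with each mouse left out. The lowest Pearson's r between cultures over all genes, 0.994, was 0.988 with a prior count of 0.5, 0.984 over detected genes only, and 0.994 to 0.995 with each mouse left out. The biological coefficient of variation was 9.29 to 17.2% with each mouse left out, lowest without mouse 2. The cause of these shifts was not tested. The others that moved were ranks of named genes, 18 of 99, mostly with another length or none.

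Under scalings chosen after seeing the data, the genes with a mean of 10 CPM or more that differed by 2 times or more were 180 with TMM, 96.1% of them highest in mouse 1, and mouse 2's median log2 ratio in the longest genes was -0.16. Detected genes with a mean of 1 to 10 CPM carry a counting error of 11.99% at the median, which limits the ordering of *Fzd5* and *Fzd1*. It is larger for *Ryk*, *Wnt6* and *Wnt9a*, with 21 to 38 counts per library, and limits any ordering among *Ryk* and the Wnt ligands. No paired analysis was possible because only 1 group is described.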

Other observations

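Genes of ribosomal proteins held only 1.08 to 1.18% of the counts of each culture. Single members were far apart: *Rplp1* had 4977 ± 475 TPM and *Rplp0* 1193 ± 48.3 TPM, while *Rps25* had 21.6 ± 6.27 TPM. *Rps25* shares 72.8% of its 50-base stretches with other genes, *Rplp0* 41.8% and *Rplp1* 60%. The part of shared sequence in these levels was not tested.

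Among the inflammatory genes, the interferon-inducible chemokine *Cxcl10* had 13.9, 6.83 and 7.67 CPM, the neutrophil attractant *Cxcl2* 6.05, 4.49 and 2.45 CPM, and *Acod1*, the enzyme that makes itaconate, 29.5, 17.9 and 21.1 CPM. The co-stimulator *Cd86* had 14.4, 8.91 and 12.1 CPM and the monocyte attractant *Ccl2* 1.29, 1.43 and 1.93 CPM. *Ccl5* had 14.2, 13.3 and 10.7 CPM.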
